A study of Mus musculus with 6 samples.

Results

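Adhesion G protein-coupled receptors (GPCRs) were described in mast cells grown from the bone marrow (BMMCs) of 2 mouse strains, BALB/c and C57BL/6. The 9 genes are Adgra1, Adgra2, Adgra3, Adgre1, Adgre4, Adgre5, Adgrg1, Adgrg3 and Adgrg6, of 35297 genes with a matched transcript and of 29 genes listed for the family. They were taken by symbol from a list drawn up with the strain contrast of these libraries known, so their strain differences, and whether they exceed the thresholds used for all genes, are given as a description that supports nothing further, with no p-value. RNA sequencing covered 3 BALB/c libraries (S9, S10 and S11) and 3 C57BL/6 libraries (S12, S13 and S14). In both strains bone marrow came from naive wild-type animals, carried no engineered allele, and was grown for 20 days in medium with stem cell factor, IL-3, IL-9 and TGF-β1 before RNA was taken from unstimulated cells. The study calls the cultures biological replicates, while the labels do not say which animals each library came from, so a p-value here measures only the spread between these libraries.

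An adhesion GPCR joins a long extracellular part, which binds matrix or proteins of neighbouring cells, to the usual membrane-spanning receptor domain. Most are cut within the cell next to the membrane, at the autoproteolysis site of the GAIN domain, and the fragments stay together. Removal or movement of the outer fragment exposes a tethered peptide that activates the receptor, which then signals through G proteins. In blood cells the family includes Adgre1 (F4/80, the classical marker of mouse macrophages), Adgre5 (CD97, of most leukocytes), Adgrg1 (GPR56, of stem cells and cytotoxic lymphocytes) and Adgrg3 (GPR97, of granulocytes). Human mast cells are known for another member of the ADGRE group, ADGRE2, which mice lack.

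Each library held between 28273312 and 37100759 estimated reads on genes. All 10 mast cell markers had reads, and their summed level was 30763 to 33662 CPM (reads scaled by library size) in BALB/c and 33772 to 35911 CPM in C57BL/6, with Hdc, the histamine-forming enzyme, lowest at 2.35 ± 0.543 and 5.34 ± 0.814 CPM (SD, n = 3 per strain, as for every mean below). Single markers differed between the strains: Tpsb2, a tryptase, and Hdc rose in C57BL/6 past the thresholds given next, with log2 fold changes of 2.32 ± 0.12 and 1.19 ± 0.19 (edgeR adjusted p 5.16e-07 and 0.000735), and Cma1, a chymase, was lower (-0.43 ± 0.07, edgeR adjusted p 0.00107). Genes were tested in edgeR (quasi-likelihood F test), p-values were adjusted by Benjamini-Hochberg over the 12461 genes with enough reads, and the thresholds for a difference were an adjusted p under 0.05 together with a change of more than 2-fold. By that rule 1653 genes differed, 13.3% of those tested, made up of 7.73% with C57BL/6 as the higher strain and 5.54% with BALB/c. This split, 963 against 690 genes, was 838 against 829 with plain library sizes and 745 against 746 with limma on log2(TPM + 0.1), so no excess in one strain is read from it. The adjusted p alone was passed by 52.9% of genes, and the 3 libraries of one strain lay wholly above those of the other for 61.9%.

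Sequences are shown first for Adgre5, whose reads were divided differently between transcripts in the 2 strains. It is on the minus strand of chromosome 8 (GRCm39, chr8:84446992-84467955). Its outer part holds repeats of the EGF type, in which 6 cysteines pair with each other, and GENCODE transcripts differ, among other places, in coding exons 5 and 6 of 20. Exon 7 (chr8:84456011-84456154) is in all 4 full transcripts. Exon 5 (chr8:84458532-84458666) is 135 bases long and exon 6 (chr8:84456740-84456886) is 147 bases long. Cysteine codons in the annotated reading frame are in capitals.

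Adgre5 exon 5: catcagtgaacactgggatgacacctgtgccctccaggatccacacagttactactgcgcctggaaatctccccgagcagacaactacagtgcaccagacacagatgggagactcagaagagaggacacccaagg
Adgre5 exon 6: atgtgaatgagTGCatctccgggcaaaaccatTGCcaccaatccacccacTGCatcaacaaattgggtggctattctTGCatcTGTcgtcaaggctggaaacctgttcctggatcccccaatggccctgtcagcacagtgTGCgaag
Adgre5 exon 7: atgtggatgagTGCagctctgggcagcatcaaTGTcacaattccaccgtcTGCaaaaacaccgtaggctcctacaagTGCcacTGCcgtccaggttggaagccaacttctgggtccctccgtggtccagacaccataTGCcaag

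Exons 6 and 7 each hold 6 cysteine codons, and exon 5 holds 0 among its 44 codons. A transcript without exon 6 therefore lacks one of the exons with 6 cysteine codons.

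In TPM, which divides reads by transcript length before libraries are brought to one sum, the order of these 9 receptors was led by the same genes in both strains. Adgrg3 was highest, at 363 ± 19.0 TPM in BALB/c and 446 ± 9.87 TPM in C57BL/6, and Adgre5 followed at 175 ± 13.1 and 158 ± 3.35 TPM. Adgrg1 came next, at 35.8 ± 3.56 and 75.5 ± 3.21 TPM. These levels put Adgrg3 at rank 256, Adgre5 at rank 605 and Adgrg1 at rank 1898 of all genes by mean TPM. Below them the order differed. In BALB/c, Adgra3 (12.5 ± 0.974 TPM), Adgrg6 (0.707 ± 0.0371 TPM) and Adgre1 (0.146 ± 0.128 TPM) followed. In C57BL/6 the order was Adgra1 (11.9 ± 1.31 TPM), Adgra3 (9.07 ± 0.737 TPM), Adgre1 (4.09 ± 0.144 TPM) and Adgrg6 (0.528 ± 0.169 TPM). No gene overlapped with its neighbour in this order in any library of either strain, and the closest neighbours were Adgra1 and Adgra3 in C57BL/6, 1.32 times apart. Adgra2 and Adgre4 had 0 reads or 1 read per library.

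**Figure D1:**
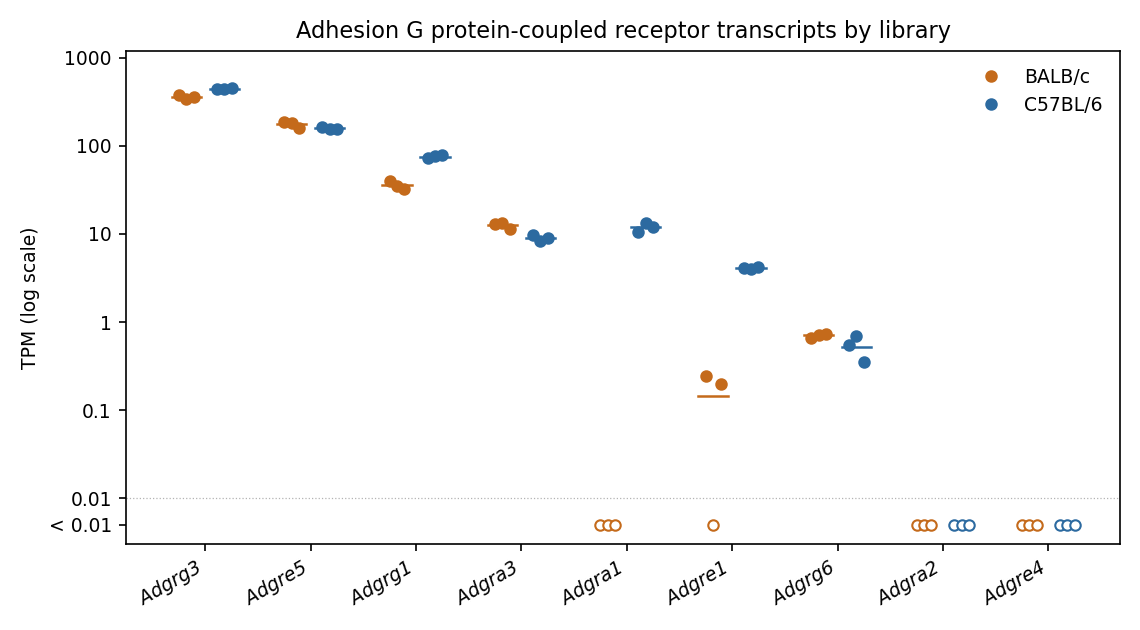
TPM of each of the 9 adhesion GPCR genes in each library on a logarithmic axis, with BALB/c in orange, C57BL/6 in blue and bars at the strain means; open circles are values below 0.01 TPM. Adgrg3, Adgre5 and Adgrg1 lead in both strains, and Adgra1 has points above the line only in C57BL/6.

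The 29 family genes summed to 586 to 640 TPM per BALB/c library and 728 to 744 TPM per C57BL/6 library, and the 9 genes described here held 95.6% to 96.9% of it. Adgrg3 took 58.1% to 61.9% over all 6 libraries. Adgre5 took 27.3% to 30.5% in BALB/c and 21.0% to 22.0% in C57BL/6, whereas Adgrg1 took 5.56% to 6.19% and 9.79% to 10.5%. The share of Adgrg3 thus overlapped between the strains and those of Adgre5 and Adgrg1 did not.

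Of the 9 genes, 7 passed the filter on low reads, and 3 of these (Adgra1, Adgre1 and Adgrg1) exceeded both thresholds, all higher in C57BL/6. For 5 of the 7 the strains were fully separated, C57BL/6 being the higher strain for 4 and BALB/c for 1. Since the genes were chosen with this contrast known, nothing is read from these counts against the 13.3% and 61.9% of all genes. The median log2 fold change of the 7 was 0.48, also with Adgra1 at its lower bound, beside -0.01 for all genes tested. Adgra1 (no read in BALB/c) and Adgre1 (16, 0 and 16 reads there) passed the filter only through C57BL/6, where they are high. Nothing is therefore read from this median either.

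**Figure D2:**
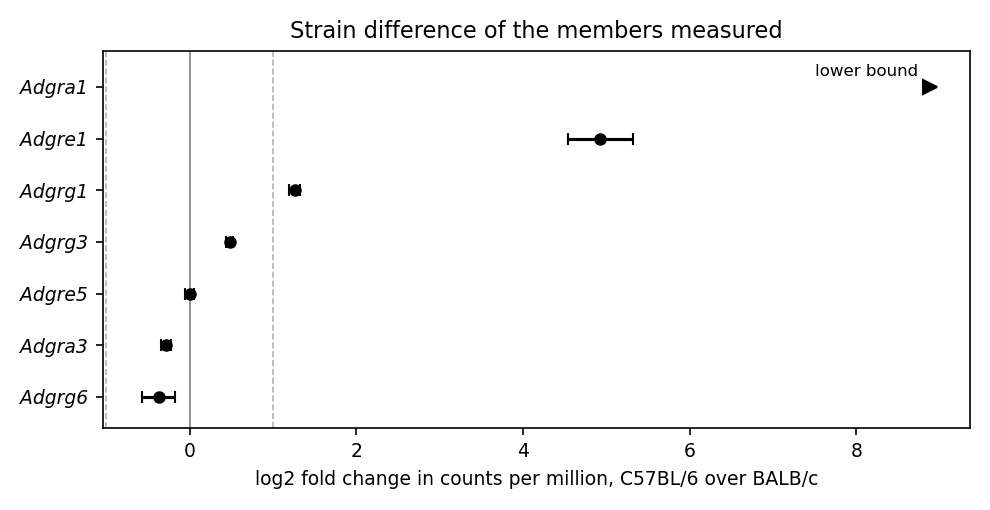
Log2 fold change in CPM, C57BL/6 over BALB/c, of the 7 adhesion GPCR genes that passed the filter, with the standard error of the fit as bars and dashed lines at a 2-fold change in either direction. Adgra1, with no read in BALB/c, is drawn at the lower bound of 474-fold, and Adgre1 and Adgrg1 are the others to the right of the dashed line at 1.

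Adgrg1 and Adgrg3 lie side by side on the plus strand of chromosome 8. In GRCm39, Adgrg1 is at chr8:95701315-95742028 and Adgrg3 at chr8:95744320-95771878, with 2291 bases between them. Adgrg3 was the more abundant in every library.

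Adgrg1 encodes GPR56, a receptor for collagen III and tissue transglutaminase that acts in cortical development and myelination. Libraries S9, S10 and S11 of BALB/c held 2968, 2490 and 2969 of its reads, and libraries S12, S13 and S14 of C57BL/6 held 6060, 5705 and 7430. The C57BL/6 libraries, at 190 to 211 CPM, lay well above the BALB/c libraries, at 79.0 to 93.2 CPM. The means were 85.2 ± 7.27 and 203 ± 12 CPM, which is a log2 fold change of 1.26 ± 0.07 (SE), or 2.39-fold. Of 20 Adgrg1 transcripts listed, 10 had a read. NM_018882 held 90.4%, 74.1% and 90.6% of the estimated reads in BALB/c and 72.8%, 71.3% and 73.7% in C57BL/6. A second transcript, NM_001198894, held 1.19%, 0.333% and 1.36% in BALB/c, against 7.82%, 9.87% and 8.77% in C57BL/6. XM_006530697 held 22.2% in library S10 and 3.34% and 3.23% in the other BALB/c libraries, against 13.5% to 15.1% in C57BL/6. Thus the share of NM_001198894 was higher in every C57BL/6 library than in any BALB/c library, while XM_006530697 overlapped and library S10 stood apart from S9 and S11. The share of NM_018882 was lower in every C57BL/6 library, but S10 at 74.1% was close to S14 at 73.7%. These shares are model estimates, and no test was made of them.

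Adgrg3 encodes GPR97, which is known from neutrophils and other granulocytes. Its reads numbered 19449, 16631 and 22464 in BALB/c, against 25629, 22275 and 29491 in C57BL/6. In CPM these were 558 to 611 and 802 to 833, without overlap. The means of 589 ± 27.5 and 819 ± 15.9 CPM gave a log2 fold change of 0.48 ± 0.04, or 1.39-fold, which is under the fold threshold. One transcript, NM_173036, held 90.3% to 92.3% of its reads in all 6 libraries. Because Adgrg1 differed more than Adgrg3, the ratio of Adgrg3 to Adgrg1 in TPM was 9.64 to 11.1 in BALB/c and 5.74 to 6.19 in C57BL/6. Markers of neutrophils were at or near 0: S100a8, S100a9, Elane, Ltf, Camp and Ngp had no read, and none of the 9 markers had more than 4 reads in a library, with a summed level of 0.0336 to 0.186 (BALB/c) and 0.0939 to 0.148 CPM (C57BL/6).

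Of eosinophil markers, Epx and Prg3 had no read and the 6 markers summed to at most 0.961 CPM. Among NK and T cell markers, which bear on Adgrg1, Prf1, Nkg7, Cd3e and Cd3g had no read, while Ncr1 was at 5.27 ± 0.418 and 4.79 ± 0.314 CPM and Eomes at 1.98 ± 0.615 and 3.17 ± 0.271 CPM. Eomes was higher in C57BL/6 by less than 2-fold (log2 fold change 0.69 ± 0.22, edgeR adjusted p 0.0233), and Ncr1 was at -0.14 ± 0.11 (edgeR adjusted p 0.327). The summed level of the 7 markers measured was 7.10 to 7.48 (BALB/c) and 7.32 to 8.36 CPM (C57BL/6). Trac was not analysed here. The stem and progenitor markers summed to 838 to 849 and 800 to 821 CPM, most of it Cd34, and Hoxa9 had no read. Of the 5 tested, Mecom exceeded both thresholds, beside 7.73% of all genes, and rose in C57BL/6 from 1.39 ± 0.431 to 8.37 ± 2.11 CPM (log2 fold change 2.59 ± 0.25, edgeR adjusted p 2.75e-05). Meis1 was lower in C57BL/6 (-0.39 ± 0.05, edgeR adjusted p 0.000231). Procr had 7, 11 and 13 reads in BALB/c, against 19, 15 and 23 in C57BL/6 (0.94 ± 0.30). It fell under the minimum count of 10 in S9 and met the filter in every library only in C57BL/6, where it is higher. No p-value is therefore given for Procr and nothing is read from it. Whether the cells that hold Mecom or Eomes also hold Adgrg1 was not tested. In such bulk RNA, fewer cells of a type and less RNA per cell cannot be told apart.

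The promoter of Adgrg3, the most abundant gene of the family here, is shown as the 250 bases before its RefSeq start (chr8:95744070-95744319, plus strand). The sequence comes from RefSeq (GRCm38.p6) and was placed in GRCm39 by an exact unique match. CG dinucleotides are in capitals.

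Adgrg3 promoter: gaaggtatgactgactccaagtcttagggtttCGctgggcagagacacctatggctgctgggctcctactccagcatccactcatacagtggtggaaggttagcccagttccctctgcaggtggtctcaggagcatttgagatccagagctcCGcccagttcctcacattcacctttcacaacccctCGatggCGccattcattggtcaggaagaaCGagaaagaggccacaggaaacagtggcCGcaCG

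The Adgrg3 window holds 7 CG, beside a median of 6 over 32851 promoters of the table. Adgrg1 has 2 windows in the table with 4 CG each. By contrast the windows of Adgra1, Adgra3 and Adgrg6 hold 15, 25 and 32 CG, and that of Adgre4 holds 2. The windows of Adgrg3 and Adgre4 lie wholly outside GENCODE exons. Of the 250 bases, only 82 do so for Adgra1, 14 for Adgra3, 21 and 0 for Adgrg1 and 0 for Adgrg6. What is read from these other windows therefore comes largely from exon sequence. The motifs AGATAA and TGATAA, which share the letters GATAA, were read on both strands as boxes for GATA factors. They were in none of the 7 windows found for 6 of the 9 genes, and 16.6% of all promoters hold either. The E-boxes CACGTG and CATGTG, the first of which reads alike on both strands, were in none of the 7 either, beside 17.6% of all promoters. These letters are absent from these windows, which says nothing about other regions of the genes. No window was found in the table for Adgra2, Adgre1 and Adgre5.

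Adgre5 encodes CD97, which binds CD55, Thy1 and integrins. It had 11913, 10995 and 12553 reads in BALB/c, against 11547, 9866 and 12527 reads in C57BL/6. These were 334 to 374 CPM and 354 to 365 CPM, so the C57BL/6 libraries lay inside the range of the BALB/c libraries. The means were 359 ± 21.9 and 360 ± 5.52 CPM, with a log2 fold change of 0.00 ± 0.05. In TPM the libraries of the strains also overlapped, at 160 to 185 TPM in BALB/c and 156 to 162 TPM in C57BL/6. Ddx39a, an RNA helicase gene on the opposite strand, overlaps the Adgre5 locus over 6530 bases in GENCODE and shares 44.2% of the 31-base words of Adgre5. The RefSeq transcripts counted here are shorter, and the share of their words was not measured. Ddx39a was at 79.7 ± 3.53 and 68.6 ± 0.362 CPM.

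While the total was alike, the split of Adgre5 reads between its transcripts was not. RefSeq transcripts were assigned to GENCODE structures by their differences in length, which match to the base for 4 of 7. NM_001163029, with neither exon 5 nor exon 6, held 36.1%, 39.2% and 36.9% of the estimated reads in BALB/c and 51.5%, 52.4% and 55.1% in C57BL/6. NM_001163030, with exon 6 only, held 32.9%, 23.8% and 29.0% in BALB/c, against 1.02%, 3.86% and 5.50% in C57BL/6. NM_011925, with both exons, held 17.9%, 21.8% and 19.1% in BALB/c, against 12.7%, 9.19% and 7.09% in C57BL/6. None of these 3 shares overlapped between the strains. Together the transcripts with exon 6 held 48.2% ± 2.65 of the reads in BALB/c and 13.1% ± 0.570 in C57BL/6. The transcripts known to lack it held 37.4% ± 1.59 and 53.1% ± 1.86. The remaining 14.4% ± 1.22 and 33.7% ± 1.35 were on predicted transcripts whose length matched no GENCODE structure, chiefly XM_017312836 with 8.76% ± 2.34 in BALB/c and 27.6% ± 2.92 in C57BL/6, and whether these hold exon 6 was not determined. Were all of them to hold it, the share with exon 6 would be 62.6% ± 1.59 in BALB/c and 46.9% ± 1.86 in C57BL/6, a smaller difference with no overlap between the libraries. Salmon divides reads that fit several transcripts by a model, so these shares are estimates, and no test was made of them.

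**Figure D3:**
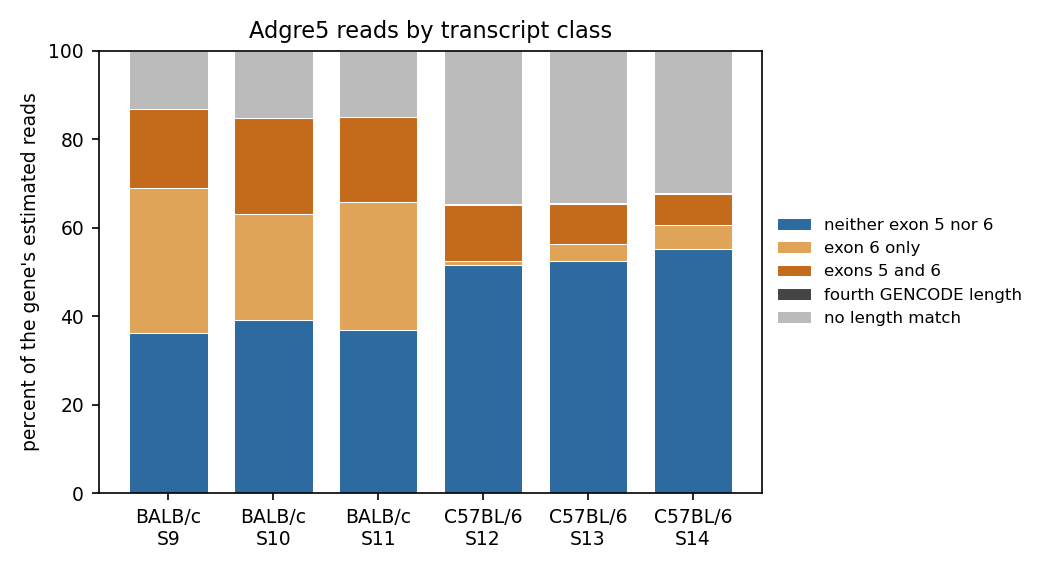
Percent of the estimated Adgre5 reads on each transcript class in each library, with classes defined by the 135-base exon 5 and the 147-base exon 6. Classes with exon 6 (orange shades) hold 45.6% to 50.9% in BALB/c and 12.6% to 13.7% in C57BL/6.

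Adgre1 encodes F4/80. It had 16, 0 and 16 reads in BALB/c, against 304, 268 and 365 reads in C57BL/6. All C57BL/6 libraries were between 9.51 and 10.3 CPM, and no BALB/c library was above 0.503 CPM. The means of 0.309 ± 0.271 and 9.91 ± 0.399 CPM gave a log2 fold change of 4.93 ± 0.39, or 30.5-fold, and this ranged from 4.41 without library S10 to 5.37 without library S9. In C57BL/6 the transcript NM_010130 held 73.2% to 95.3% of the reads. In BALB/c the 16 reads of S9 were all assigned to NM_001355722 and the 16 reads of S11 all to NM_001355723. None of the 31-base words of Adgre1 is shared with another gene.

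Since F4/80 is used to find macrophages, their other markers are given beside it. Of 9, Csf1r, C1qa, C1qb, C1qc, Mertk and Marco had no read in any library, and 8 had at most 3 reads in every library. Cd68, a lysosomal protein that other cells also have, was the exception and rose from 0.913 ± 0.213 to 3.71 ± 0.434 CPM (log2 fold change 2.01 ± 0.20, edgeR adjusted p 3.54e-05). It made up nearly all of the summed level of 0.705 to 1.13 (BALB/c) and 3.44 to 4.32 CPM (C57BL/6). Of 8 basophil markers, 4 (Mcpt8, Prss34, Cebpa and Ccl9) were higher in C57BL/6 past both thresholds, beside 7.73% of all genes. Nothing is read from that count, since Prss34 (1, 8 and 2 BALB/c reads), Cebpa (5, 3 and 2) and Ccl9 (5, 5 and 13) passed the filter only through C57BL/6, where they are high. The others did not move together, as Il18r1 was lower in C57BL/6 (log2 fold change -0.54 ± 0.12, edgeR adjusted p 0.00415), Cd200r3 (-0.07 ± 0.04) and Itga2 (0.15 ± 0.22) had adjusted p-values of 0.154 and 0.589 in edgeR, and Ms4a3 was at 0.99 ± 0.20 (edgeR adjusted p 0.0024). The list summed to 406 to 418 (BALB/c) and 512 to 523 CPM (C57BL/6). Their part in the Adgre1 and Adgra1 levels was not tested. Stromal and endothelial cells were represented by Pecam1, which mast cells also carry, and the other 7 of 8 markers had at most 3 reads in every library, with none for Col1a2, Pdgfra and Cdh5.

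Adgre4, a receptor of myeloid cells at chr17:56056984-56175274, had 0 reads in all 6 libraries. A count of 0 allows up to 3 reads, which is 0.0798 to 0.111 CPM depending on the library (counting error only), so any Adgre4 RNA was under that level. Adgre1 is on the same chromosome, at chr17:57665573-57790527, both on the plus strand.

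Adgra1 encodes GPR123, known mainly from the nervous system, and is at chr7:139413922-139458004 on the plus strand. It had 0 reads in each BALB/c library and 1203, 1340 and 1524 reads in the C57BL/6 libraries. Thus it was not detected at this depth in one strain and was at 37.6, 49.5 and 43.1 CPM in the other. The C57BL/6 mean of 43.4 ± 5.95 CPM was at least 474-fold higher than the mean level that 3 reads per BALB/c library would give. NM_177469 held 92.0% to 96.5% of its reads and XM_006536203 the rest. The gene shares 0.309% of its 31-base words with others. The nearest genes, Kndc1 at a distance of 16607 bases and Cfap46 at 150188 bases, had at most 2 reads per library in both strains.

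Adgra3, which encodes GPR125, is at chr5:50116808-50216574 on the minus strand. It had 1237, 1191 and 1323 reads in BALB/c, against 1053, 795 and 1104 reads in C57BL/6. The BALB/c libraries, at 35.2 to 40.0 CPM, lay above the C57BL/6 libraries, at 29.4 to 33.0 CPM. The means were 38.0 ± 2.49 and 31.2 ± 1.78 CPM, with a log2 fold change of -0.28 ± 0.06. It was the one gene of the 9 whose libraries were all higher in BALB/c, and the size was well under 2-fold. Adgra2, which encodes GPR124, a receptor of brain endothelium, is at chr8:27575514-27613464 on the plus strand and had 1 read in library S13 and none elsewhere.

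Adgrg6 encodes GPR126, which Schwann cells need to form myelin, and is at chr10:14277458-14421421 on the minus strand. It had 98, 101 and 131 reads in BALB/c, against 91, 84 and 65 reads in C57BL/6. The 3.08 to 3.48 CPM of BALB/c overlapped with the 1.84 to 3.10 CPM of C57BL/6. The log2 fold change was -0.37 ± 0.20 and ranged from -0.51 to -0.16 when single libraries were left out. With so few reads, the division between its 8 transcripts varied from library to library and is not described.

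Of the other 20 family genes, 9 had no read in any library and 3 passed the filter. These 3 are also a description with no p-value, as the rest of the family from which these genes were chosen. Adgrg7 (GPR128, known from the intestine) was at 19.1 ± 1.15 (BALB/c) and 48.2 ± 4.22 CPM (C57BL/6), with a log2 fold change of 1.33 ± 0.07, close to that of Adgrg1. In TPM it was at 10.7 ± 0.469 and 23.9 ± 1.82, above Adgra1 in C57BL/6 and between Adgra3 and Adgrg6 in BALB/c by mean. Celsr2, of planar cell polarity, was low and higher in BALB/c, at 1.61 ± 0.245 and 0.787 ± 0.285 CPM. Its log2 fold change of -1.05 ± 0.28 sat at the threshold and no longer counted as different without S10, S12 or S14. Adgrl1, a latrophilin, was at 41.7 ± 5.76 and 36.7 ± 5.45 CPM, and its libraries overlapped.

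The question of what these receptors could meet was addressed with 17 genes of known ligands and membrane partners. Of these, 10 were tested, 7 had an adjusted p under 0.05, all higher in C57BL/6, and 3 exceeded both thresholds. Reck, one of the 3, passed the read filter only through the strain where it is high, so nothing is read from these counts beside the 52.9% and 13.3% of all genes. Cd9, a tetraspanin that joins GPR56 at the membrane, rose from 86.9 ± 5.85 to 185 ± 7.19 CPM (log2 fold change 1.09 ± 0.06, edgeR adjusted p 4.99e-07). Its reads were 2958, 2579 and 3053 in BALB/c, against 5652, 5068 and 6749 in C57BL/6, with every C57BL/6 library above every BALB/c library. With plain library sizes and with limma on TPM its change was under 2-fold. Cd81, the other tetraspanin of that complex, had 0, 0 and 1 reads in BALB/c, against 3, 6 and 8 in C57BL/6, and did not pass the filter. With no filter it exceeded both thresholds. Collagen III (Col3a1) had 1 read in all, and Tgm2, the transglutaminase, was at 1.24 ± 0.501 and 1.15 ± 0.300 CPM (edgeR adjusted p 0.837).

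For Adgre5, the ligand Cd55 was at 150 ± 12.8 and 214 ± 6.53 CPM, with a log2 fold change of 0.52 ± 0.06 (edgeR adjusted p 0.000103) under the fold threshold. Its paralog Cd55b was at 1.36 ± 0.267 and 2.72 ± 0.0623 CPM, a log2 fold change of 1.0 ± 0.18 (edgeR adjusted p 0.00143) that sits on the threshold and was lost without S10, S11 or S12, with plain library sizes, with edgeR and a length offset, with no filter, with limma at either pseudocount and with unmatched transcripts kept. The copies are alike in sequence, so the low Cd55b count may include reads of Cd55, which was not tested. Thy1 had no read in any library. Of 4 integrin subunits, Itga5 and Itgb1 were higher in C57BL/6 by less than 2-fold, with log2 fold changes of 0.47 ± 0.06 (edgeR adjusted p 0.000137) and 0.39 ± 0.03 (edgeR adjusted p 1.43e-05). Itgav had a log2 fold change of 0.07 ± 0.05 (edgeR adjusted p 0.3). Itgb3 had 35, 19 and 9 reads in BALB/c, against 34, 44 and 53 in C57BL/6, and its libraries overlapped (log2 fold change 1.1 ± 0.44). It fell under the minimum count of 10 in S11 and met the filter in every library only in C57BL/6. No p-value is therefore given for Itgb3. It exceeded both thresholds with no filter and without S9, from which nothing is read.

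For Adgra2, the partner Reck, a membrane-anchored inhibitor of metalloproteases that presents Wnt7 with GPR124, had 1, 1 and 2 reads in BALB/c, against 70, 49 and 68 reads in C57BL/6. The ratio was 49.1, with a 95% counting interval of 18.9 to 182 (exact binomial) covering counting error only. Reck passed the read filter only through its C57BL/6 reads and could not be tested with at least 10 counts in every library, so no p-value is given. Neither its receptor Adgra2 nor Wnt7a had more than 1 read in a library. For Adgrg6, the ligand Prnp (the prion protein) was abundant, at 3026 ± 21.1 and 3824 ± 65.1 CPM (log2 fold change 0.34 ± 0.03, edgeR adjusted p 1.44e-05), and Col4a1 had no read.

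**Figure D4:**
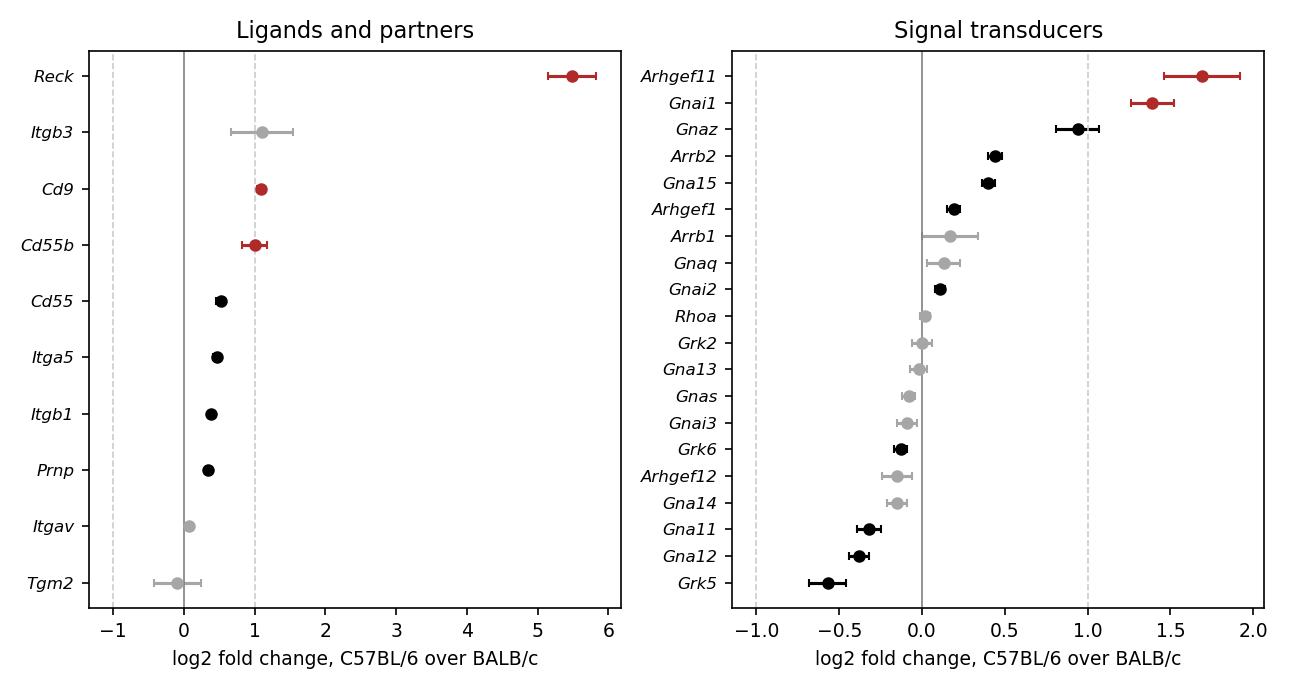
Log2 fold change, C57BL/6 over BALB/c, with the standard error of the fit, of the ligand and partner genes tested (left) and of the signal transducers tested (right). Red points exceed both thresholds, black points have an adjusted p under 0.05 alone, grey points neither, and dashed lines mark a 2-fold change. Reck (red) and Itgb3 (grey) met the read filter in every library only in C57BL/6, so nothing is read from their colours.

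Downstream, 21 genes of G protein α subunits, guanine nucleotide exchange factors, receptor kinases and arrestins were listed and 20 were tested. Of these, 11 had an adjusted p under 0.05, with the higher level in C57BL/6 for 7 and in BALB/c for 4, and 2 exceeded both thresholds. Over all genes these shares are 52.9% and 13.3%, so the counts say nothing particular about this list. Their median log2 fold change was 0.01. Gnai1, an inhibitory α subunit, rose from 3.12 ± 0.238 to 8.21 ± 1.02 CPM (1.39 ± 0.13 on the log2 scale, edgeR adjusted p 1.9e-05). Arhgef11, a guanine nucleotide exchange factor that G12/13 subunits activate, rose from 1.28 ± 0.365 to 4.12 ± 0.824 CPM (1.69 ± 0.23, edgeR adjusted p 0.000257). Both were low beside their relatives Gnai2, at 677 ± 7.75 and 730 ± 18.2 CPM, and Arhgef1, at 293 ± 5.29 and 335 ± 5.39 CPM. Gna13, the subunit most often tied to GPR56, was at 120 ± 6.04 and 118 ± 3.13 CPM (edgeR adjusted p 0.716), and Rhoa was at 382 ± 5.55 and 387 ± 5.64 CPM (edgeR adjusted p 0.722). Its relative Gna12 was lower in C57BL/6 by less than 2-fold, at 88.1 ± 6.37 and 67.7 ± 2.09 CPM (-0.38 ± 0.06 on the log2 scale, edgeR adjusted p 0.0004).

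Of the genes next to these receptors, 15 were looked up outside the list, 13 of these had values and 10 were tested. Vav1 was the one of these 10 with an adjusted p under 0.05, beside 52.9% of all genes, and its change was under 2-fold. Vav1 lies beside Adgre1 at a distance of 29337 bases. It was at 213 ± 8.41 and 234 ± 6.20 CPM, so the gene next to the receptor with a 30.5-fold difference was higher by 0.14 ± 0.04 on the log2 scale (edgeR adjusted p 0.0208). Genes that overlap a receptor locus were not among these neighbours. Of the overlapping genes, Ddx39a, over Adgre5, was at -0.22 ± 0.04 on the log2 scale (edgeR adjusted p 0.00212). Pot1b, over Adgre4, was at 0.33 ± 0.1 (edgeR adjusted p 0.0214), also under 2-fold. Brf2 (over Adgra2, -0.31 ± 0.2) and Zfp119a (over Adgre4, 0.16 ± 0.15) had edgeR adjusted p-values of 0.229 and 0.402.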

How the data were processed

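RNA of day 20 BMMCs was sequenced from 3 BALB/c and 3 C57BL/6 libraries with a stranded mRNA kit. The authors checked reads with FastQC v0.11.5 and quantified transcripts with Salmon v0.8.2. The tables the authors deposited hold an estimated count per transcript, which need not be whole, and TPM, which is divided by effective length. The paper's methods name Ensembl GRCm39, whereas the tables list RefSeq accessions. Both strains were assigned to the same transcripts, and the effect of strain sequence differences was not measured.

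Accessions were matched without version to symbols (RefSeq, GRCm38.p6, names only): 106440 of 129698 transcripts matched, giving 35297 genes, and 2.69% to 3.12% of reads stayed unmatched and outside the main fit. Estimated counts were summed by gene, rounded and tested with edgeR 4.0.16 (R 4.3.3), TMM factors (0.940 to 1.05) and filterByExpr with a minimum count of 10. The biological coefficient of variation was 0.0665. CPM use TMM-scaled library sizes. Alternatives were DESeq2 1.42.0, limma 3.58.1 on log2 TPM with pseudocounts of 1 and 0.1, other scalings and filters, and each library left out. Coordinates and exons are from GENCODE vM39 (GRCm39). The fit was tested on simulated data. The members and gene lists were chosen with earlier results of these data known. Some items are not reported here. Named genes were all 9 members, other family genes of at least 1 CPM in either strain, partners and transducers past both thresholds with a fixed set of ligands, and markers at 0 or past both thresholds. Gna12, Gna13, Rhoa, Gnai2, Arhgef1, Itga5, Itgav, Itgb1, Itgb3, Vav1, Kndc1, Cfap46, Ddx39a, Pot1b, Brf2, Zfp119a and the markers Cma1, Ncr1, Eomes, Cd34, Procr, Meis1, Pecam1, Il18r1, Cd200r3, Itga2 and Ms4a3 were added after their values were seen.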

Additional observations from a re-analysis of the deposited data

How the results depend on the processing

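Of all genes, 1653 differed, and 1017 did with at least 10 counts in every library, 799 with limma on log2(TPM + 1) and 2050 with no filter. The count with each library left out was 1663 to 1777. Of the 9 members, 3 exceeded both thresholds in every alternative except the filter of at least 10 counts in every library, which left 1, since Adgra1 and Adgre1 could not be tested. Leaving out each library kept it at 3. Of the other adhesion GPCRs, 2 counted as different, and 1 did with either length offset (DESeq2 and edgeR), with limma at either pseudocount and with unmatched transcripts kept, which removed Celsr2 each time, 3 did with no filter, which added Adgrf4, and 1 to 2 did with a library left out. Of the ligands and partners, 3 counted, 1 with plain library sizes, 0 with limma on log2(TPM + 1), where 7 had an unadjusted p under 0.05, 1 with limma on log2(TPM + 0.1), 4 with no filter, and 2 to 4 with a library left out. Of the signal transducers, 2 counted, 0 with limma on log2(TPM + 1), where 15 had an unadjusted p under 0.05, and 2 to 3 with a library left out. The cause was not tested, except that a larger pseudocount shrinks folds of low genes. Plain library sizes shifted the median of all genes by -0.14, and limma by -0.14 and -0.17, and Adgre5 then moved from 0.00 to as low as -0.14, no further than that median. The log2 fold change of Adgre1 was 2.16 on log2(TPM + 1) and 4.28 to 5.37 otherwise, that of Adgrg1 stayed between 1.06 and 1.32, of Adgrg3 between 0.30 and 0.50 and of Adgra3 between -0.46 and -0.24. Each strain had 3 libraries, and the reads limit Adgre1 in BALB/c, Adgrg6, Celsr2 and Reck. No paired analysis was possible because the strains share no library number.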
